A study of Mus musculus with 4 samples.

Results

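The genes described here encode the contactins *Cntn1* to *Cntn6* and the contactin-associated proteins *Cntnap1*, *Cntnap2*, *Cntnap4* and *Cntnap5a*. These 10 genes were taken by symbol from the RNA-seq count tables of the mouse prefrontal cortex (PFC), which hold 23420 symbols in all. All 10 passed the filter on low counts, after which 16232 genes were tested. *Ash1L* encodes a histone methyltransferase that methylates lysine on histone H3. C57BL6/J mice had an AAV9 injected into the PFC, and the study asked which transcripts changed when *Ash1L* was knocked down. Of the 4 samples, 2 came from mice given a GFP-tagged AAV9 with an shRNA to *Ash1L* (*Ash1L* shRNA 1 and 2) and 2 from mice given a GFP AAV9 without it (control 1 and 2), which the paper's methods call a scrambled shRNA AAV. A U6 promoter, which is not specific to a cell type, drives the shRNA, and which cell types the virus infected was not measured here. The labels give an age of 6 to 8 weeks, whereas the study's methods give injection at 5 weeks and state that GFP-fluorescent punches of 3 mice were pooled for each sample. Each sample is thus bulk tissue, in which infected and uninfected cells cannot be told apart.

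Contactins are immunoglobulin-type cell adhesion molecules that are held on the outer membrane by a lipid anchor and have no intracellular part. Contactin-associated proteins, also called Caspr proteins, belong to the neurexin superfamily and span the membrane, and pairs of the 2 families sit together on axons. The pair of contactin-1 and Caspr, the product of *Cntnap1*, builds the paranodal junction where the myelin loops meet the axon beside the node of Ranvier. The pair of contactin-2 and Caspr2, the product of *Cntnap2*, gathers potassium channels in the juxtaparanode next to it. The other contactins act in neurite growth and in the formation of synapses in the developing cortex, and several genes of both families, *CNTNAP2* and *CNTN4* among them, have been studied as candidate genes for autism spectrum disorder.

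Every one of the 10 genes had a lower fitted level with *Ash1L* shRNA than in control, with a median log2 fold change of -0.32, where the median of all tested genes was -0.003. The share of all tested genes with a fold change below 0 was 50.3%. With the limits of the study, a gene was called DOWN or UP with an unadjusted P under 0.05 and at least a 1.2-fold change. The study took its P from DESeq2, whereas the calls here rest on edgeR's quasi-likelihood test. By this rule *Cntnap1*, *Cntn5*, *Cntn6* and *Cntn2* were DOWN, which is 4 of 10, and none was UP. Of all tested genes, 8.28% were DOWN and 8.61% were UP. With DESeq2 the DOWN genes were *Cntnap1*, *Cntn5* and *Cntn1*, 3 of 10, against 6.35% of all genes it fitted. *Cntn2* and *Cntn6* were not called there. Both *Ash1L* shRNA samples lay below both controls for 7 of the 10 genes, as they did for 26.8% of all tested genes. The fitted changes ran from -0.05 for *Cntnap4* to -0.59 for *Cntnap1*. After Benjamini-Hochberg adjustment over all 16232 genes, edgeR's quasi-likelihood test left none of the 10 below an adjusted p of 0.05, and 1 gene of all below it. The count of DOWN genes turned on single samples, since without control 2 it was 0 of 10 by edgeR, with none at an unadjusted P under 0.05 either, and without control 1 or without *Ash1L* shRNA 2 it was 2 of 10. Of all tested genes, 1.86% were DOWN without control 2, 4.14% without control 1 and 5.05% without *Ash1L* shRNA 2. With a block for the replicate number, which was not shown to pair the samples, *Cntnap1* and *Cntn6* were DOWN, 2 of 10, against 6.28% of all tested genes.

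**Figure D1:**
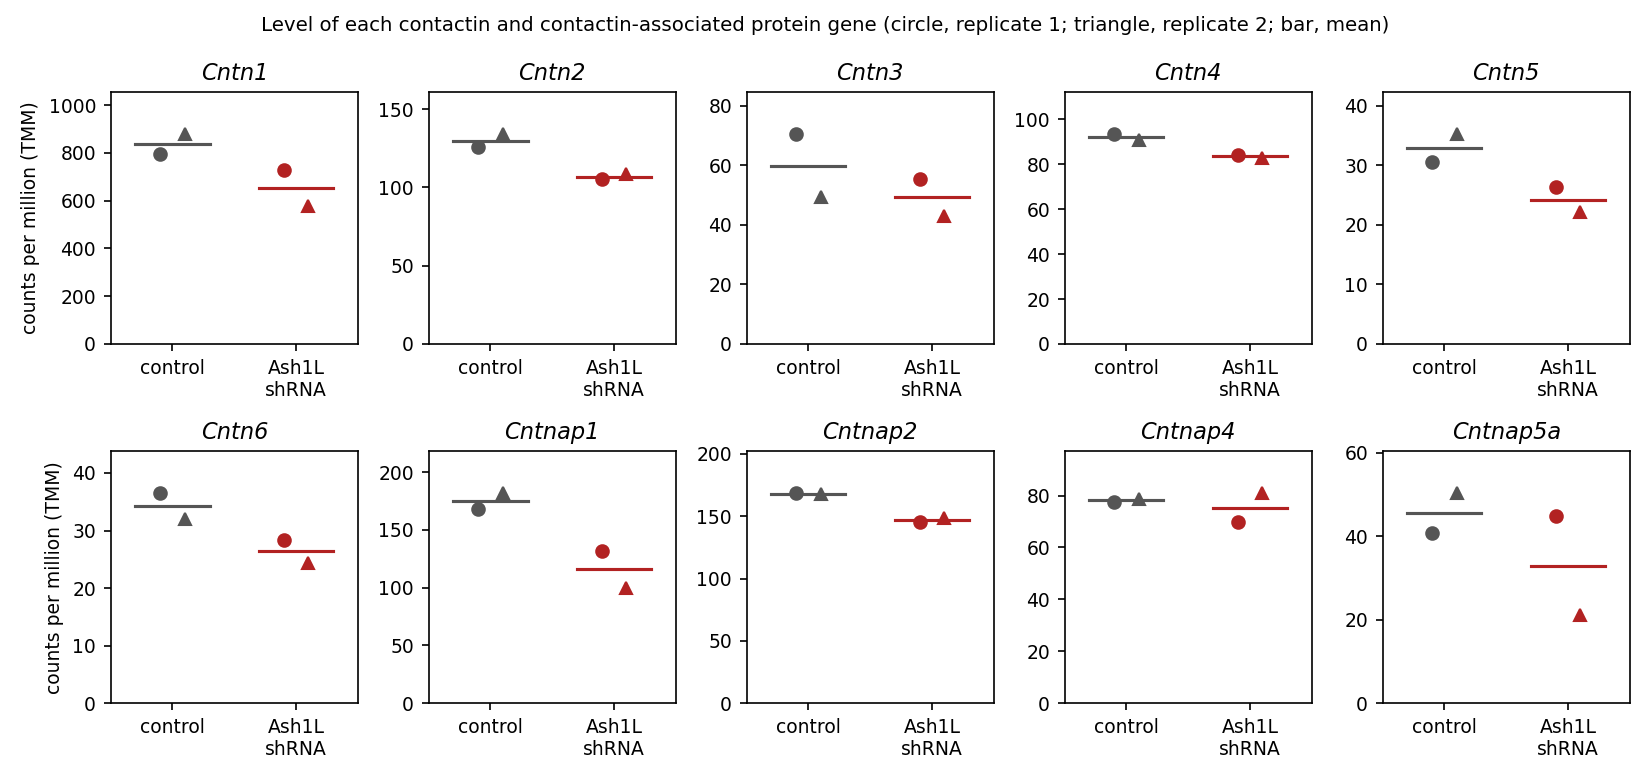
Level of each gene in each sample, in CPM, counts per 1000000 after TMM scaling (y axis, from 0), for control (grey) and *Ash1L* shRNA (red). Circles are replicate 1, triangles replicate 2 and bars the mean of the 2. The groups are apart in 7 genes and overlap in *Cntn3*, *Cntnap4* and *Cntnap5a*.

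The level of the target itself did not overlap between groups and was DOWN. *Ash1l* stood at 245.0 and 290.1 CPM (counts per 1000000 of the library total after TMM scaling) in control 1 and 2 and at 215.6 and 137.5 CPM in *Ash1L* shRNA 1 and 2. Its log2 fold change was -0.60 ± 0.22 (SE), with an adjusted p of 0.275 by edgeR, and it was no longer called without control 1, control 2 or *Ash1L* shRNA 2, at -0.71, -0.48 and -0.31. With an offset for exonic length it was not called either, at -0.545, nor with that offset and the replicate block, at -0.58. Library totals ran from 14251190 counts in control 1 to 35764874 in control 2. The lowest count of any of the 10 genes was 432 for *Cntn5* in control 1, with an exact Poisson 95% interval of 392 to 475 that covers counting error only, and the highest was 30831 for *Cntn1* in control 2.

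The 10 genes lie on chromosomes 1, 6, 8, 9, 11 and 15 of mm10, and 4 of them on chromosome 6. *Cntn3*, *Cntn6* and *Cntn4* are neighbours there, in a region of 4.54 Mb whose protein-coding genes are these 3 and *Chl1*, an L1-type adhesion gene between *Cntn3* and *Cntn6*. Most of the 10 are very long genes. By the GENCODE vM21 annotation 8 of them span between 291 and 2245 kb, where the median tested gene spans 23.7 kb, and *Cntn2* with 33.8 kb and *Cntnap1* with 20.2 kb are the short ones. The sequences upstream of the start are shown for the 3 contactins called DOWN and for *Cntn1*, the gene with the highest level, to set out how unlike these promoters are in CG content. Each is the 250 bases before a RefSeq transcript start on GRCm38.p6, the assembly of mm10, read 5′ to 3′ on the gene's own strand, with each CG dinucleotide in capitals. *Cntn1* lies at chr15:92050915-92051164 on the plus strand, *Cntn2* at chr1:132542941-132543190 on the minus strand, *Cntn5* at chr9:10904776-10905025 on the minus strand and *Cntn6* at chr6:104492794-104493043 on the plus strand.
Cntn1: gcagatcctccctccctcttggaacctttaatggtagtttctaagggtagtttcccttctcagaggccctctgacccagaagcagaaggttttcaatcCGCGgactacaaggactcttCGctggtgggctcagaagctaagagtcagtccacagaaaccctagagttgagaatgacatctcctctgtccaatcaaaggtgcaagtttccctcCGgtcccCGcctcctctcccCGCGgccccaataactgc
Cntn2: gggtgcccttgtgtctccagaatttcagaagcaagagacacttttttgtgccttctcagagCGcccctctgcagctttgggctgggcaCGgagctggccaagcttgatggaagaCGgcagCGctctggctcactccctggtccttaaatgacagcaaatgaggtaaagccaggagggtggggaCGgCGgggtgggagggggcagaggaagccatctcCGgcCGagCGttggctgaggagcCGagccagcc
Cntn5: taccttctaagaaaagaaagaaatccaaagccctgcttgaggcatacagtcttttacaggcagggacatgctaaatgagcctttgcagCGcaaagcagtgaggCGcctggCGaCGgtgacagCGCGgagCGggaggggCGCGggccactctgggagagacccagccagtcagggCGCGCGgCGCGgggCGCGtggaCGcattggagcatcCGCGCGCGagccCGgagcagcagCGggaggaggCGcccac
Cntn6: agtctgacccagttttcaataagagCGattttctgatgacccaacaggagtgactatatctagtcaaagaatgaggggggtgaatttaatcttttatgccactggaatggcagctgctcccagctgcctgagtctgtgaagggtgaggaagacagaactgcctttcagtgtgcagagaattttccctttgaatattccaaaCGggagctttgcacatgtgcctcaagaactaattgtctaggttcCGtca

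These 4 windows hold 7, 10, 24 and 3 CG dinucleotides in that order, where the median of the 32851 mouse promoters in the RefSeq table is 6 and the quartiles are 2 and 16. *Cntn5* therefore lies above the upper quartile, whereas *Cntn6* lies below the median and both are DOWN. The motif CCAAT, searched on both strands, occurs in the windows of *Cntn1* and *Cntn5* shown and in 33.9% of all promoters. TATAAA, present in 12.4% of promoters, and GGGCGG, present in 32.7%, occur in none of these 4 windows on either strand. GGGCGG itself holds a CG dinucleotide. The RefSeq table held 12 starts for 7 of the 10 genes. Among the others, the *Cntn3* window held 0 CG dinucleotides. *Cntn1* has 3 starts in the table and *Cntn5* has 2, and the windows not shown differ in part, since the other *Cntn5* window, which overlaps the one shown, held 26 CG dinucleotides and GGGCGG, and the other *Cntn1* windows held 3 each, 1 of them with TATAAA. GENCODE starts some of these genes farther upstream, so the windows of *Cntn2*, *Cntn3*, *Cntn4*, *Cntn6* and *Cntnap2* lie inside the genes as annotated there, and those of *Cntn1* and *Cntn5* shown lie just outside. *Cntnap1*, *Cntnap4* and *Cntnap5a* had no entry.

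Of the paranodal pair, *Cntnap1* had the largest change of the 10 genes and *Cntn1* missed the P threshold. *Cntnap1* (ENSMUSG00000017167, chr11:101170523-101190724, plus strand), which encodes the axonal Caspr of the paranode, had 168.0 and 181.7 CPM in control 1 and 2 and 131.8 and 99.8 CPM in *Ash1L* shRNA 1 and 2. Both *Ash1L* shRNA samples were below both controls, and *Ash1L* shRNA 2 was the lowest. The means were 174.8 ± 9.69 CPM (SD, n = 2) and 115.8 ± 22.6 CPM (SD, n = 2), or 66.2% of control. The log2 fold change was -0.59 ± 0.16 (SE), with an unadjusted P of 0.0083 and an adjusted p of 0.253 by edgeR. *Cntnap1* was the 1 gene of the 10 that was at least 1.5-fold lower and DOWN. The share of all tested genes DOWN at that limit was not computed. Without control 2 it stood at -0.54, just past the P threshold at 0.050 by edgeR, and it stayed DOWN in each of the other 16 alternatives. Its exons share 233 bases with *Plekhh3* on the opposite strand, and the strand setting of the counting is not given in the sources used here, so reads in that stretch could belong to either gene.

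*Cntn1* (ENSMUSG00000055022, chr15:92051165-92341967, plus strand), which encodes the contactin partner of Caspr and is also found at synapses and nodes, had 796.4 and 878.9 CPM in the controls and 729.4 and 577.2 CPM in *Ash1L* shRNA 1 and 2. The groups did not overlap, and the drop was again larger in *Ash1L* shRNA 2. Its log2 fold change was -0.36 ± 0.15 (SE), close to that of *Cntn6*, but with an unadjusted P of 0.052 and an adjusted p of 0.299 by edgeR it was not called. It was DOWN in 6 of 17 alternative analyses, DESeq2 among them, and without *Ash1L* shRNA 1 it was DOWN at -0.54.

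Both genes of the juxtaparanodal pair had tight replicates and small changes. *Cntn2* (ENSMUSG00000053024, chr1:132509427-132543256, minus strand), which encodes contactin-2, an adhesion molecule of axons and myelinating glia also known as TAG-1, had 125.5 and 134.1 CPM in the controls and 105.3 and 108.4 CPM in *Ash1L* shRNA 1 and 2. The *Ash1L* shRNA samples were alike and both lower. The means were 129.8 ± 6.09 CPM (SD, n = 2) and 106.8 ± 2.19 CPM (SD, n = 2), a log2 fold change of -0.28 ± 0.11 (SE) with an unadjusted P of 0.039 and an adjusted p of 0.280 by edgeR. The call lay near both limits and was lost in 8 of the 13 alternatives that kept every sample, DESeq2 among them. It was also lost without control 1, control 2 or *Ash1L* shRNA 1, at -0.32, -0.24 and -0.27.

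*Cntnap2* (ENSMUSG00000039419, chr6:45059357-47304213, plus strand), which encodes Caspr2 and spans 2245 kb, the longest of the 10, had 168.4 and 167.7 CPM in the controls and 145.3 and 148.5 CPM in *Ash1L* shRNA 1 and 2. The groups did not overlap, and the gap between them was wide beside the spread within each. The log2 fold change of -0.19 ± 0.11 (SE) was below 1.2-fold and was not called, with an adjusted p of 0.379 by edgeR.

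Of the contactins that act in neurite growth and synapse formation, *Cntn5* and *Cntn6* were DOWN and *Cntn3* and *Cntn4* were not called. Differences between these genes were not tested. *Cntn5* (ENSMUSG00000039488, chr9:9660891-10904775, minus strand), the contactin also known as NB-2, had 30.6 and 35.3 CPM in the controls and 26.4 and 22.1 CPM in *Ash1L* shRNA 1 and 2. Each *Ash1L* shRNA sample was below each control. The means of 32.9 ± 3.29 CPM and 24.2 ± 3.02 CPM (SD, n = 2 each) gave a log2 fold change of -0.44 ± 0.15 (SE), with an unadjusted P of 0.026 and an adjusted p of 0.262 by edgeR. Of the 13 alternatives that kept every sample, 1 lost the call, the replicate block. Without control 2 or *Ash1L* shRNA 2 it was lost as well, at -0.34 and -0.32.

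*Cntn6* (ENSMUSG00000030092, chr6:104492790-104863406, plus strand), the contactin also known as NB-3, had 36.5 and 32.0 CPM in the controls and 28.4 and 24.4 CPM in *Ash1L* shRNA 1 and 2. The groups did not overlap, and the higher value of each group was in replicate 1. With means of 34.2 ± 3.18 CPM and 26.4 ± 2.85 CPM (SD, n = 2 each), the log2 fold change was -0.37 ± 0.15 (SE), with an unadjusted P of 0.044 and an adjusted p of 0.286 by edgeR. The call was lost in 6 of the 13 alternatives that kept every sample, among them DESeq2, the edgeR likelihood ratio test and upper-quartile scaling. Without control 1, control 2 or *Ash1L* shRNA 2 it was lost too, at -0.26, -0.47 and -0.26.

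*Cntn3* (ENSMUSG00000030075, chr6:102162655-102573101, minus strand), the contactin also known as BIG-1, had 70.6 and 49.2 CPM in the controls and 55.5 and 43.0 CPM in *Ash1L* shRNA 1 and 2. The groups overlapped, since *Ash1L* shRNA 1 lay above control 2, and the controls differed more from each other than the group means did. The log2 fold change was -0.28 ± 0.21 (SE), with an adjusted p of 0.523 by edgeR, and without control 1 it was 0.011. *Cntn4* (ENSMUSG00000064293, chr6:105677660-106699310, plus strand), also known as BIG-2 and needed for olfactory axon guidance, had 93.5 and 90.8 CPM in the controls and 84.2 and 82.8 CPM in *Ash1L* shRNA 1 and 2. Its replicates were close and its groups did not overlap. At 90.7% of control, with a log2 fold change of -0.14 ± 0.11 (SE) and an adjusted p of 0.510 by edgeR, it was not called in any of 17 alternatives.

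The neighbours on chromosome 6 thus had fold changes of unequal size. *Cntn6* was DOWN, whereas *Chl1*, which lies between it and *Cntn3*, had 349.5 and 339.7 CPM in the controls and 303.2 and 314.8 CPM in *Ash1L* shRNA 1 and 2. The log2 fold change of *Chl1* was -0.16 ± 0.11 (SE), with an adjusted p of 0.478 by edgeR. The difference between *Cntn6* and its neighbours was not tested.

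Neither of the remaining Caspr genes was called. *Cntnap4* (ENSMUSG00000031772, chr8:112570043-112882717, plus strand), which encodes Caspr4, a protein of interneuron synapses, had 77.4 and 78.9 CPM in the controls and 69.9 and 80.9 CPM in *Ash1L* shRNA 1 and 2. *Ash1L* shRNA 2 was the highest of the 4 samples, the reverse of its place in most of the other genes. The log2 fold change was -0.05 ± 0.12 (SE), with an adjusted p of 0.850 by edgeR, and it turned to 0.045 without *Ash1L* shRNA 1. *Cntnap5a* (ENSMUSG00000070695, chr1:115684756-116587323, plus strand), which encodes a Caspr5 protein, had 40.8 and 50.3 CPM in the controls and 44.8 and 21.2 CPM in *Ash1L* shRNA 1 and 2. *Ash1L* shRNA 1 lay between the controls and *Ash1L* shRNA 2 far below them. The log2 fold change of -0.46 ± 0.35 (SE) had the largest standard error of the 10 and an adjusted p of 0.522 by edgeR. Without *Ash1L* shRNA 1 it was -1.12 and without *Ash1L* shRNA 2 it was -0.03, so its size rested on 1 sample. *Cntn5* and *Cntnap4* each share exon bases with an annotated antisense gene, 290 with *Gm32710* and 503 with *Gm45904*, and neither antisense gene had a row in the counts used here.

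**Figure D2:**
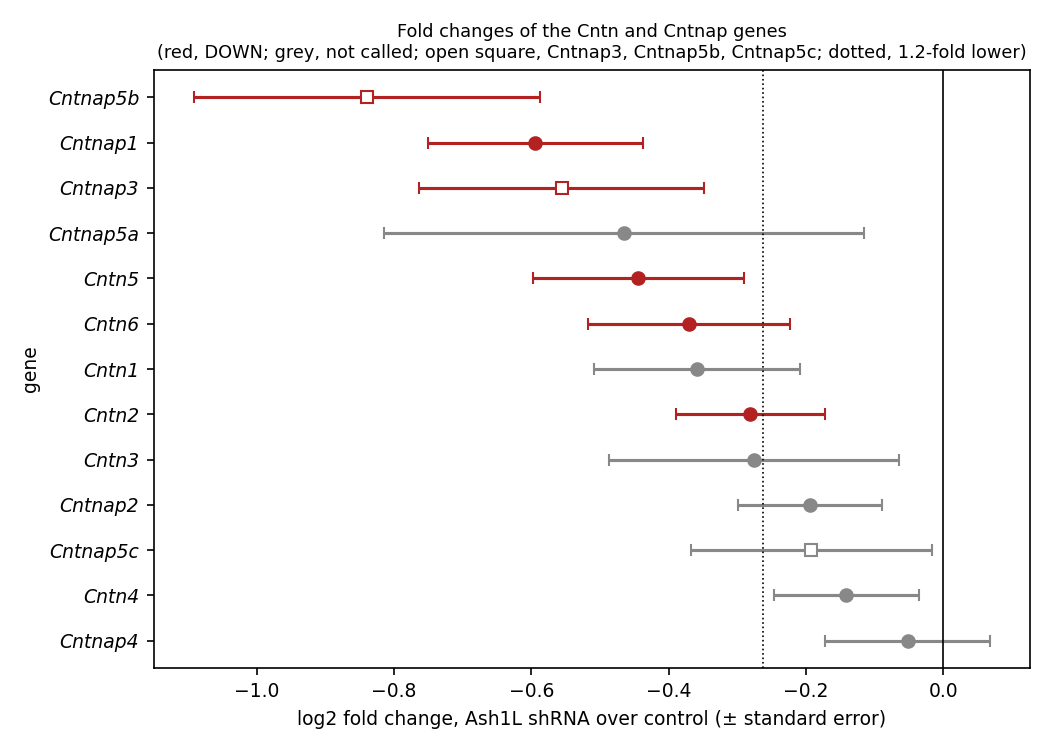
Log2 fold change of *Ash1L* shRNA over control (x axis, with standard error) for the 10 genes (filled circles) and the other 3 genes of the families (open squares), ordered by size. DOWN genes are red, and the dotted line marks 1.2-fold lower. All 13 estimates lie below 0, and *Cntnap5b*, *Cntnap1* and *Cntnap3* are the lowest.

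By symbol the families hold 13 genes in the count tables, and the other 3 are *Cntnap3*, *Cntnap5b* and *Cntnap5c*, which encode further Caspr proteins. *Cntnap5b* (chr1:99772765-100485942) had 25.01 and 32.0 CPM in the controls and 19.6 and 12.2 CPM in *Ash1L* shRNA 1 and 2. It did not overlap between groups. Its log2 fold change was -0.84 ± 0.25 (SE), with an adjusted p of 0.260 by edgeR, and it was DOWN. *Cntnap3* (chr13:64736182-64903955) had 12.2 and 12.2 CPM in the controls and 9.38 and 7.19 CPM in *Ash1L* shRNA 1 and 2, and was DOWN at -0.56 ± 0.21 (SE, adjusted p of 0.272 by edgeR). *Cntnap5c* (chr17:57769570-58410355) had 14.0 and 15.8 CPM in the controls and 12.01 and 14.1 CPM in *Ash1L* shRNA 1 and 2, with overlapping groups and no call. Without control 2 neither *Cntnap5b*, at -0.65, nor *Cntnap3*, at -0.56, was called, and *Cntnap3* was also lost without control 1 or *Ash1L* shRNA 2, at -0.55 and -0.38. Over the 13 genes, 6 were DOWN and none UP, and the median log2 fold change was -0.36. Of all tested genes, 8.28% were DOWN and 8.61% UP, with a median of -0.003. With the replicate block *Cntnap3*, at -0.57, was not called, and 3 of the 13 were DOWN, against 6.28% of all tested genes. *Cntnap5a*, *Cntnap5b* and *Cntnap5c* are close paralogs, and how reads that match more than 1 of them were counted is not given in the sources used here.

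The *Ash1L* shRNA samples lay at unequal distances from the controls. Relative to the control mean, on the scale of log2(CPM + 1), the median of the 10 genes was -0.20 in *Ash1L* shRNA 1 and -0.46 in *Ash1L* shRNA 2. All 10 genes were below the control mean in *Ash1L* shRNA 1 and 9 of 10 in *Ash1L* shRNA 2, with *Cntnap4* the exception. *Ash1L* shRNA 2 was the lower of the pair for 7 of the 10, the exceptions being *Cntn2*, *Cntnap2* and *Cntnap4*. That sample was also the lower one for 90.0% of all DOWN genes, against 52.2% of all tested genes, and it had the lower level of *Ash1l*. The DOWN genes were called on values that include this sample, so the 90.0% is a description only. Whether the differences between the samples follow the level of *Ash1l* was not tested. *Cntnap1* lay at -0.40 and -0.80 in *Ash1L* shRNA 1 and 2, and *Cntn5* at -0.31 and -0.55. *Cntn2* lay at -0.30 and -0.26 and *Cntnap2* at -0.21 and -0.18, so these genes did not show a lower level in *Ash1L* shRNA 2. The *Ash1L* shRNA samples also lay close together for *Cntn4*, at -0.13 and -0.15. Differences between genes in this respect were not tested.

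**Figure D3:**
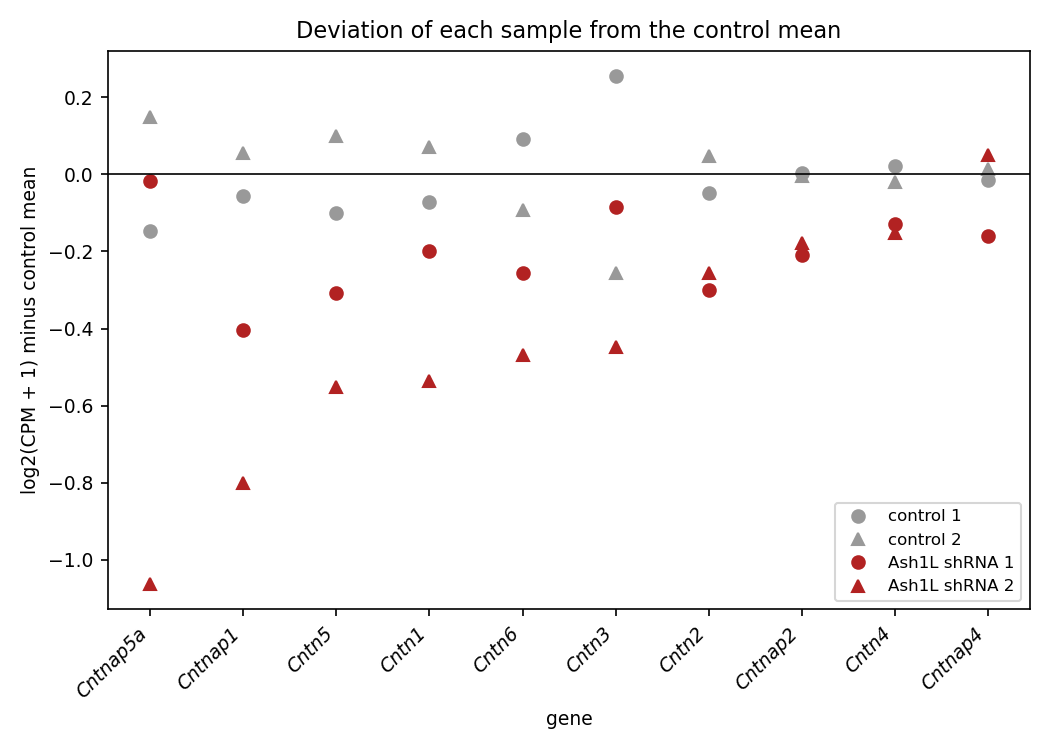
Deviation of each sample from the control mean, as a difference of log2(CPM + 1) (y axis), for each gene (x axis). Controls are grey and *Ash1L* shRNA samples red, with circles for replicate 1 and triangles for replicate 2. *Ash1L* shRNA 2 lies at -1.06 for *Cntnap5a* and -0.80 for *Cntnap1*, while both *Ash1L* shRNA samples lie close together for *Cntn2*, *Cntnap2* and *Cntn4*.

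Per kb of exon, *Cntn1* was the most abundant of the 10 in the controls, at 84.4 and 93.2 CPM per kb in control 1 and 2. *Cntnap1* followed with 28.6 and 30.9, *Cntnap2* with 16.4 and 16.4 and *Cntn2* with 13.5 and 14.4 CPM per kb. *Cntnap4*, *Cntn4*, *Cntn3*, *Cntn5* and *Cntn6* came next, and *Cntnap5a* was the lowest at 3.73 and 4.60 CPM per kb. *Cntn3* and *Cntn5* were the only neighbours in this order whose control values overlapped. In *Ash1L* shRNA 1 and 2 the values of *Cntn1* were 77.3 and 61.2 and those of *Cntnap1* 22.4 and 17.0 CPM per kb, again the highest of the 10. In these samples *Cntn2* and *Cntnap4* overlapped, as did *Cntn6* and *Cntnap5a*. The summed CPM of the 10 genes was 1608 and 1699 CPM in the controls and 1421 and 1208 CPM in *Ash1L* shRNA 1 and 2.

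The genes whose products bind contactins included 2 calls. Of 12 ligands and receptors, among them receptor phosphatases, L1-type adhesion molecules and amyloid precursor proteins, 2 (16.7%) were DOWN, none was UP and 9 had a fold change below 0, with a median of -0.09, beside 8.28% DOWN and 50.3% below 0 over all tested genes. *Aplp1*, an amyloid precursor-like protein, had 534.4 and 603.9 CPM in the controls and 447.8 and 377.4 CPM in *Ash1L* shRNA 1 and 2, a log2 fold change of -0.46 ± 0.14 (SE, adjusted p of 0.260 by edgeR). *Lphn1*, the older symbol of the latrophilin receptor *Adgrl1*, had 693.3 and 683.5 CPM in the controls and 542.9 and 559.5 CPM in *Ash1L* shRNA 1 and 2, a log2 fold change of -0.32 ± 0.11 (SE, adjusted p of 0.262 by edgeR). In both the groups did not overlap. *Aplp2* stood at the other end of the list with 0.17 ± 0.14 (SE) and no call.

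Of 17 components of the node, paranode and juxtaparanode, 4 (23.5%) were DOWN, none was UP and 13 had a fold change below 0, with a median of -0.09, beside the same 8.28% and 50.3% over all tested genes. *Nfasc*, whose glial product is the partner of the contactin-1 and Caspr pair across the paranodal gap, had 282.3 and 294.0 CPM in the controls and 295.4 and 309.3 CPM in *Ash1L* shRNA 1 and 2. It stood at 0.07 ± 0.11 (SE), the highest of the list, and was not called. Counts were per gene symbol and from bulk tissue, so they do not give the level of the glial product alone. *Kcna2*, a potassium channel subunit of the juxtaparanode, had 384.1 and 364.4 CPM in the controls and 286.0 and 195.9 CPM in *Ash1L* shRNA 1 and 2. Its log2 fold change was -0.63 ± 0.19 (SE, adjusted p of 0.260 by edgeR). *Scn2a1*, the sodium channel gene now named *Scn2a*, *Kcnq3*, a potassium channel subunit of nodes and initial segments, and *Sptbn1*, a spectrin of the axonal cytoskeleton, were DOWN with log2 fold changes of -0.51 ± 0.15, -0.37 ± 0.13 and -0.34 ± 0.14 (SE). The neurexins, neuroligins and LRRTMs, synaptic adhesion proteins of which the neurexins share a superfamily with the Caspr proteins, had 3 of 10 (30.0%) DOWN and a median of -0.21. Both *Ash1L* shRNA samples lay below both controls for 7 of these 10, as for 7 of the contactin and Caspr genes and 26.8% of all tested genes. A fold change below 0 was found for 8 of them. With the replicate block 3 of them were DOWN, against 6.28% of all tested genes. The difference between these lists and the 10 genes was not tested.

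Marker genes of several cell types were examined in the same samples. Of all tested genes 8.28% were DOWN and 8.61% UP, and a single call in lists this short was not read as a shift. The summed level of 8 general neuronal markers was 7728 and 7964 CPM in the controls and 6971 and 5969 CPM in *Ash1L* shRNA 1 and 2, with 1 of 8 DOWN. Of 8 markers of excitatory neurons 4 were DOWN, with summed levels of 2891 to 3373 CPM in the controls and 2157 to 2662 CPM with *Ash1L* shRNA, and all 8, *Slc17a7* and *Tbr1* of the cortex among them, were at 32.6 CPM or more in every sample, as fits the PFC label. As a share of the summed general neuronal markers, the 10 genes stood at 20.8% and 21.3% in the controls and at 20.4% and 20.2% in *Ash1L* shRNA 1 and 2. Both *Ash1L* shRNA values lay below both controls, in a narrower range than that of the summed CPM of the 10 genes. *Cntn1* alone made up 49.5% and 51.7% of that sum in the controls and 51.3% and 47.8% in *Ash1L* shRNA 1 and 2. As a share of the excitatory markers they stood at 55.6% and 50.4% and at 53.4% and 56.0%, with overlapping groups. In bulk tissue fewer cells of a type and less RNA per cell cannot be told apart.

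Of 9 oligodendrocyte markers, of interest because the paranodal junction forms with myelin, 2 were DOWN, and their summed levels overlapped, at 2690 and 3047 CPM in the controls and 2854 and 2524 CPM in *Ash1L* shRNA 1 and 2. As a share of these markers the 10 genes stood at 59.8% and 55.8% in the controls and lower, at 49.8% and 47.9%, in *Ash1L* shRNA 1 and 2. Relative to the astrocyte markers they stood at 29.5% and 29.4% in the controls and higher, at 32.1% and 36.9%, in *Ash1L* shRNA 1 and 2. Relative to the interneuron markers the groups overlapped, at 202.9% and 239.2% and at 204.3% and 179.4%. Of 8 interneuron markers 3 were DOWN (summed levels of 710 to 792 CPM and 674 to 696 CPM), and of 8 astrocyte markers 5 were DOWN (5456 to 5772 CPM and 3271 to 4423 CPM). Of 7 markers of oligodendrocyte precursors 2 were UP, of 7 endothelial markers 1 was UP, and of 5 leptomeningeal markers 1 was DOWN and 1 UP. These counts stand beside the same 8.28% DOWN and 8.61% UP of all tested genes. Microglial markers had no call, with a summed level of 1100 CPM in *Ash1L* shRNA 1 and 437 CPM in *Ash1L* shRNA 2 around 830 and 849 CPM in the controls. Markers of striatal neurons summed to 257 CPM in *Ash1L* shRNA 2, against 143 to 151 CPM in the other samples, with 2 of 7 UP and 1 DOWN. Of 3 Schwann cell markers, 2 were under 1 CPM in every sample, *Pmp2* among them, and *Prx* had 1.42 and 1.85 CPM in the controls and 1.64 and 2.46 CPM in *Ash1L* shRNA 1 and 2. The part of these shifts in the levels of the contactin and Caspr genes was not tested.

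**Figure D4:**
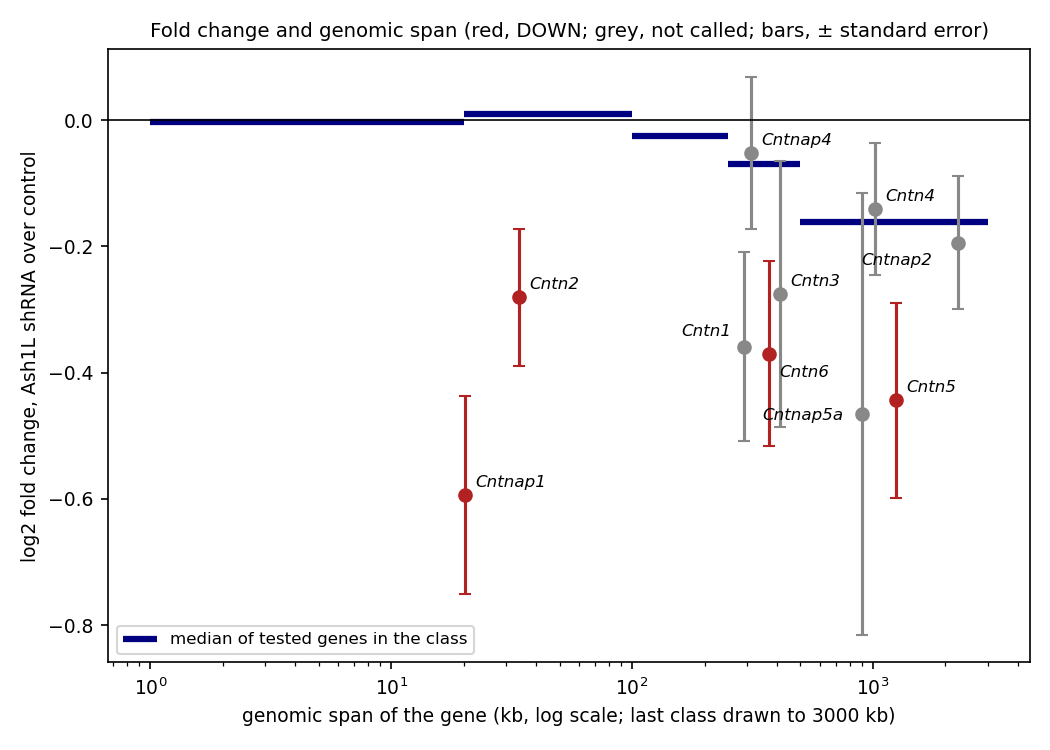
Log2 fold change with standard error (y axis) against the genomic span of each of the 10 genes in kb (x axis, log scale), with DOWN genes in red. Dark bars give the median of all tested genes in 5 classes of span, with -0.003 below 20 kb, 0.009 at 20 to 100 kb and -0.16 at 500 kb and above. *Cntnap1* and *Cntn2* are short genes, and the other 8 lie in the 2 classes of the longest genes.

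The median log2 fold change was -0.003 below 20 kb, 0.009 at 20 to 100 kb and -0.025 at 100 to 250 kb. It was lower in the 2 longest classes, to which 8 of the 10 belong. Of the 220 tested genes that span 500 kb or more, 15.9% were DOWN, 3.64% were UP and the median log2 fold change was -0.16. Of the 495 genes of 250 to 500 kb, 15.8% were DOWN, 8.28% were UP and the median was -0.07. *Cntn4*, *Cntn5*, *Cntnap2* and *Cntnap5a* fall in the first class, where *Cntn4* stood above the class median and the other 3 below it. *Cntn1*, *Cntn3*, *Cntn6* and *Cntnap4* fall in the second, where *Cntnap4* alone stood above the median. *Cntnap1* and *Cntn2* lie in the class of 20 to 100 kb, of which 8.45% were DOWN with a median of 0.01. These classes were chosen after the values were seen, and the part of gene span in the result was not tested.

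Among the genes outside the 10 with patterns most like that of *Cntnap1* over the 4 samples were *Erbb4*, a neuregulin receptor, and *Syt9*, a synaptotagmin. Likeness was the root mean square difference of centred log2 normalized counts over the 12457 tested genes with a mean of at least 100 counts. It was 0.013 for *Erbb4* and 0.015 for *Syt9*, where the median gene had 0.344. *Erbb4* had 73.4 and 78.0 CPM in the controls and 57.6 and 43.5 CPM in *Ash1L* shRNA 1 and 2, with a log2 fold change of -0.58 and an adjusted p of 0.255 by edgeR. Its groups did not overlap, and *Ash1L* shRNA 2 was the lowest sample, as for *Cntnap1*. This likeness follows from how *Erbb4* was picked. Of the other 9 genes, *Cntn5* at 0.107 and *Cntn1* at 0.121 were nearest to *Cntnap1*, and *Cntnap4* at 0.349 was the farthest. With 4 samples this order is a description only.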

How the data were processed

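PFC RNA-seq was analysed for 4 samples, grouped by their labels. The authors aligned reads to mm10 with STAR and counted them with featureCounts, as the submitters' processing notes and the paper give it, whereas the extraction text of the labels names TopHat2 and RefSeq mRNAs. What they deposited are raw counts, 1 per gene symbol. The strand and multiple-mapping settings of the counting are not given in the sources used here. Replicates are separate pools of mice per the paper, while the series description names 3 shRNA and 2 control mice. Where samples are not separate animals, p-values measure only the spread between them.

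Genes were filtered with filterByExpr, scaled with TMM and tested with the robust quasi-likelihood F test in edgeR 4.0.16 (R 4.3.3), with Benjamini-Hochberg adjustment over 16232 genes. Standard errors were derived from F as the absolute log2 fold change over its square root. The pipeline was tested on simulated data with 200 changed genes. A pseudocount of 1 CPM entered log2 levels per sample. Positions, spans and exon lengths are from GENCODE vM21, matched by symbol and RefSeq synonyms for 98.3% of symbols. Total counts ran from 14251190 to 35764874. Replicates differed by more than sampling noise (chi-square per degree of freedom of 14.8 for controls and 42.3 for shRNA samples).

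The genes, partner lists and marker lists were chosen with earlier results of these data known, so no list was tested as a set. Named partners are those called DOWN or UP and the ends of each list's range, besides *Chl1* as a neighbour on chromosome 6. Of the 3 genes with the pattern most like *Cntnap1*, 1 is not reported here. Alternatives were DESeq2 1.42.0, the edgeR likelihood ratio test, other scalings and filters, and offsets for exonic length and GC content. Others were a replicate block, a 1.5-fold limit and leaving out each sample. The length offset did not use genomic span. With 2 samples a group, the smallest two-sided permutation p is 0.333, so no exact test of single values could reach 0.05.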

Additional observations from a re-analysis of the deposited data

How the results depend on the processing

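The count of DOWN genes among the 10 was 4 and moved with several choices. It was 2 with the edgeR likelihood ratio test, 2 with library size only as the scaling and 1 with a limit of 1.5-fold. It was 3 with DESeq2. Of all genes, 7.81% were DOWN with the likelihood ratio test, 7.05% with library size only and 6.35% with DESeq2. The share of all genes DOWN at the 1.5-fold limit was not computed. Leaving out 1 sample at a time gave 0 to 5 DOWN genes, with 0 when control 2 was left out and 5 when *Ash1L* shRNA 1 was, and the share of all genes DOWN was then 1.86% and 16.5%. No alternative made any of them UP. The median log2 fold change of the 10 genes ranged from -0.36 to -0.28 in the alternatives that kept every sample, and from -0.48 to -0.20 when 1 was left out. All 10 fold changes stayed below 0 in the alternatives that kept every sample. With 1 sample left out, *Cntn3* ran from -0.52 to 0.011, above 0 without control 1, and *Cntnap4* from -0.16 to 0.045, above 0 without *Ash1L* shRNA 1. *Cntnap1* lost its call in 1 of 17 alternatives, without control 2. Of the other DOWN genes, *Cntn5* lost it in 3, *Cntn6* in 9 and *Cntn2* in 11. The median of all genes stood between -0.018 and 0.039 in the alternatives that kept every sample.

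The numbers of the samples were not shown to pair them, since the correlation of the deviations of same-numbered samples was -0.11. A replicate block left 2 of the 10 genes DOWN, 2 with the block and a length offset and 4 with the block and a GC offset. Of all genes, 6.28%, 6.94% and 7.14% were DOWN in these settings. The replicate block gave 1 DOWN ligand or receptor gene in place of 2, also with either offset, and 2 DOWN nodal genes in place of 4, also with a length offset. The length offset without the block gave 2 nodal genes as well, where 8.18% of all genes were DOWN. With the crossed pairing, which was chosen after seeing the data, 5 of the 10 genes were DOWN, and of all genes 1736 (10.7%) were DOWN. Leaving out 1 sample at a time gave 0 to 4 DOWN ligand or receptor genes and 1 to 6 DOWN nodal genes. The cause of these moves was not tested.

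With 2 samples a group, leaving out 1 sample changed the calls of each DOWN gene. The lowest count of the 10 genes was 432.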
